A study of Mus musculus with 4 samples.

Results

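Gene expression in the lateral lingual swellings of the mouse embryo at E11.5 (LLS) was set against that in the lateral mandibular arch at the same stage (LMA). These are 2 of the 4 arrays of a study of tongue formation, 1 array per tissue, and the other arrays hold the medial mandibular arch at E9.5 (MMA) and the tongue at E14.5 (T). The embryos were of the outbred ICR stock, and the labels name no treatment and no engineered allele. The LLS tube and the LMA tube held tissue pooled from 4 embryos each, the MMA tube from 12 and the T tube from 4. The labels call the LLS sample medial and the LMA sample lateral, and each piece was whole dissected tissue that holds epithelium and mesenchyme together. The extraction text of the labels names the cerebellum, but the cerebellar markers Atoh1, Gabra6, Neurod1 and Calb1 were not well above background in either tissue. Of the same list, Zic1 and En2 stood near the background, and Pcp2 had 640.2 in LLS against 1539 in LMA. Of 27059 genes named on the array, 17699 gave a signal well above background in LLS or in LMA and were compared, 16147 of them in both tissues.

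The lateral lingual swellings are paired outgrowths on the floor of the mandibular arch that merge to form most of the front of the tongue. Their connective tissue comes from cranial neural crest, their muscle from occipital somites whose progenitors migrate into the arch, and they are covered by oral epithelium. The lateral mandibular arch gives rise to much of the lower jaw, and its muscle comes from the mesoderm of the first pharyngeal arch. Signals of the epithelium, Sonic hedgehog above all, are known to shape the mesenchyme of the tongue. The series design names a search for tissue-specific genes, and the pairing of LLS with LMA asks which genes differ between tongue-forming and jaw-forming tissue of 1 stage.

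Levels are given as the scaled signal of a probe, which is the background-subtracted brightness of its spots after each array was brought to a 75th percentile of 500. A difference is the log2 signal in LLS minus that in LMA, so that 1 is a 2-fold difference. Its error, after the ± sign, is the error of the signals as Feature Extraction models it. This error leaves out the choice of background correction, which moved some differences by more than the error. There were no replicates, so no test between the tissues was made and genes are counted by size alone. Of the 17699 genes, 633 exceeded LMA by 2-fold or more (3.58%), and 503 stood below it by as much (2.84%). Among the 16147 genes measured in both tissues these counts were 495 (3.07%) and 388 (2.4%). The probe was not well above background in the other tissue for 138 of the higher and 115 of the lower genes, whose differences are therefore lower bounds. Such bounds hold for this background subtraction and floor only, and another background correction can give smaller differences. A 4-fold difference was reached by 187 genes higher in LLS (1.06%) and 73 lower (0.412%). Most genes lay close together: 84.0% were within 1.5-fold, the median difference was 0.008 and the central 95% ran from -1.06 to 1.26. Probes printed up to 10 times on each array gave an SD of 0.05 for the difference of a single spot, which leaves out differences between the pools. Where a called gene had another probe, the other probes pointed the same way for 174 of 198 genes higher in LLS and for 166 of 182 lower.

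**Figure D1:**
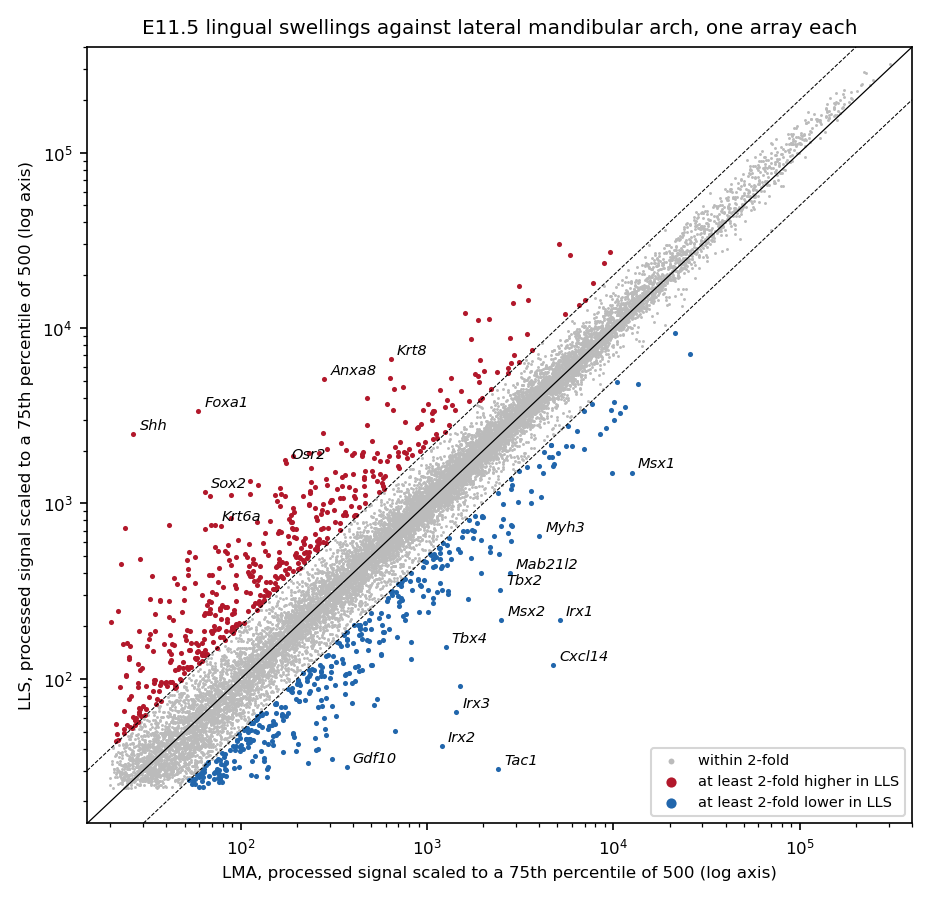
Scaled signal in LLS (vertical, log axis) against LMA (horizontal, log axis) for the 16147 genes well above background in both tissues, with 1 point per gene and dashed lines at 2-fold. The 495 red genes (3.07%) lie 2-fold or more above LMA and the 388 blue genes (2.4%) as far below, with Shh farthest above the diagonal and Tac1 farthest below it.

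Shh and most listed targets of the Hedgehog pathway were higher in LLS, and no gene measured in both tissues differed more than Shh. In this pathway a secreted ligand relieves the block that Patched receptors place on Smoothened, and Gli factors then switch on target genes, which include Ptch1 and Gli1 themselves and forkhead genes of the mesenchyme. Shh, the ligand made by oral and lingual epithelium, had a scaled signal of 2496 in LLS against 26.6 in LMA (6.55 ± 0.31). Markers of epithelium as a group were also higher, with a median of 2.24 over 12 genes, and their part in the level of Shh was not tested. The other ligand genes stood close to the background and close to each other, Ihh at 52.6 in LLS against 40.2 in LMA. Dhh was at 32 in LLS against 42.6 in LMA.

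Among receptors and modulators the members went both ways. Ptch1, the receptor and a feedback inhibitor, gave 3692 in LLS against 1011 in LMA (1.87), and its other probes differed by 1.61 and 2.60. Hhip, which binds and retains the ligand, was higher (1.32), while the ligand-binding co-receptor genes Gas1 and Cdon were lower. Gas1 had 740.2 in LLS against 2866 in LMA (-1.95), and Cdon had 2113 in LLS against 6026 in LMA (-1.51). Boc, a relative of Cdon, differed by -0.80, and the signal transducer gene Smo by 0.06. Scube2, which helps to release the ligand, was lower (-1.11), but within 2-fold with normexp background correction (-0.65), which models background in place of subtracting it, and with the mean of its probes (-0.38).

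Of 11 genes listed as Gli factors and targets, 7 passed 2-fold upward in LLS and 0 downward, and the median was 1.66 against 0.008 over all genes compared. The shares of all genes past 2-fold were 3.58% and 2.84%, as given above. This list, like the others, was written with earlier results of these data known, so its count only describes its members. Gli1, the transcriptional activator that is itself a target, had 8782 in LLS against 2778 in LMA, whereas Gli2 (-0.66) and Gli3 (-0.46) were within 2-fold. Foxf1, a forkhead gene of mesenchyme near Hedgehog-producing epithelium, had 11289.9 in LLS against 2146 in LMA. Its relative Foxf2 had 2788 in LLS against 474 in LMA. Foxd1 reached 1863 in LLS against 192 in LMA (3.28 ± 0.21). Foxl1 was well above background in LLS alone, at 273 against a dim 8.89 in LMA. It was at least 13.8-fold higher (3.78, or 2.06 with normexp). It was not well above background in MMA or T either. The odd-skipped genes Osr1 and Osr2, transcription factor genes of arch and palate mesenchyme, differed by 1.26 and 3.28. Osr2 gave 1692 in LLS against 174 in LMA, and its other probe 2.36. Ccnd1, a cell-cycle target of the pathway, differed by -0.69. Over the list of 24 Hedgehog genes, 10 were higher and 3 lower.

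The epithelial transcription factor genes that lead this comparison were also well above background in the E9.5 arch and in the tongue. Foxa2, a forkhead gene of endoderm and floor plate, had 3344 in LLS against a dim 15 in LMA. LLS was thus at least 169-fold higher (7.40, or 5.45 with normexp). Foxa2 gave 1095 in MMA at E9.5 and 8946 in T at E14.5. Foxa1, its close relative, had 3360.5 in LLS against 59.1 in LMA (5.83 ± 0.23, or 4.74 with normexp), with 318 in MMA and 5288 in T. Sox2, a factor of the tongue epithelium and its taste buds, had 1158 in LLS against 64.0 in LMA (4.18 ± 0.22), with 749.8 in MMA and 2052 in T. LMA thus had the lowest signal of the 4 tissues for Foxa2, Foxa1, Sox2 and Shh, the last with 598 in MMA and 878 in T. For Foxd1 the order was another, since LLS stood above MMA (165), LMA and T (302).

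**Figure D2:**
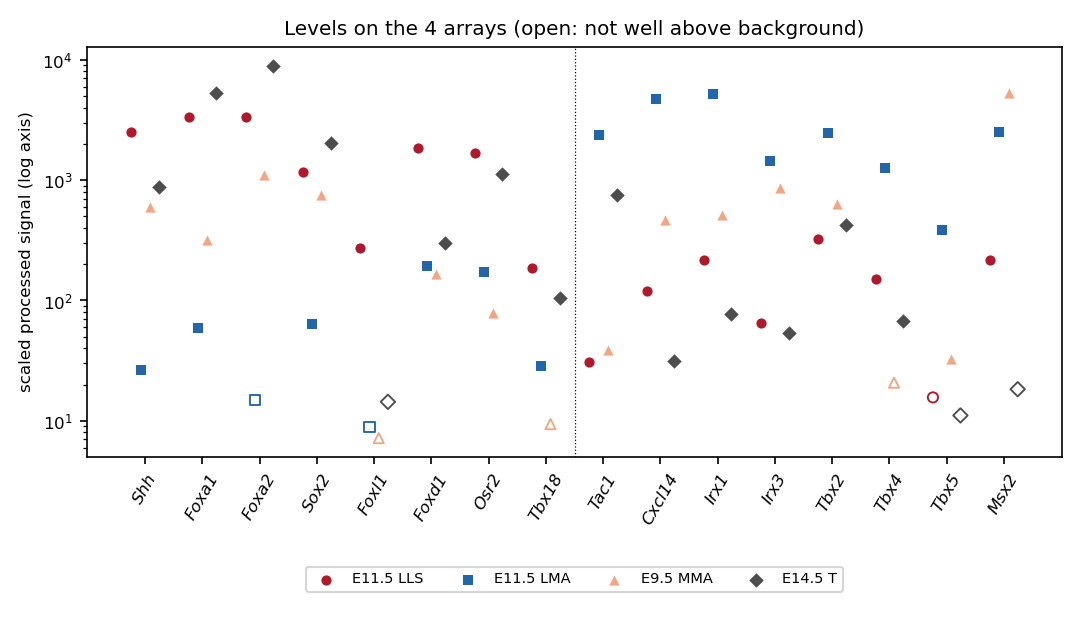
Scaled signal (log axis) of 16 genes on the 4 arrays, 8 that were higher in LLS on the left of the dotted line and 8 that were lower in LLS on the right, with 1 symbol per array and open symbols where the probe was not well above background. Foxa1, Foxa2 and Sox2 are low in LMA alone, whereas Irx1, Tbx2, Tbx4 and Tbx5 stand highest in LMA.

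Most listed epithelial regulators and desmosome genes were higher in LLS, while keratins, claudins and laminins held members on either side. The transcription factor list held 19 compared genes, of which 14 passed 2-fold upward and 0 downward, and the median was 1.84. Over all genes compared, 3.58% passed 2-fold upward and 2.84% downward. Elf5, an Ets gene of glandular epithelia, was at 346 in LLS against a dim 18.3 in LMA. Grainyhead genes, which drive epithelial barrier formation, were represented by Grhl3 with 2218 in LLS against 343 in LMA. Grhl2 had 1254 in LLS against 349.7 in LMA. The AP-2 gene Tfap2c had 3402 in LLS against 657 in LMA, and the zinc-finger gene Klf5 had 675 in LLS against 135 in LMA. Foxe1, named for its part in palate and thyroid formation, gave 243 in LLS against 22 in LMA, but its other probe differed by 0.79. Ovol2 (0.14), Elf3 (0.49) and Sox21 (0.50) were within 2-fold. Of 9 genes for epithelial splicing, polarity and surface proteases, 8 were higher. The splicing regulator gene Esrp1 had 1029 in LLS against 157 in LMA, and Esrp2 had 346 in LLS against 45.8 in LMA. The remaining gene, the protease inhibitor gene Spint2, differed by 0.31.

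Adhesion and cytoskeleton genes of epithelia divided by type. Keratins, the intermediate filaments of epithelial cells, had 12 of 32 members higher and 2 lower (median 0.26). All genes compared had 3.58% higher and 2.84% lower, here and for the families below. Of the keratins of simple epithelium, Krt8 had 6644 in LLS against 638 in LMA and its partner Krt18 14448 in LLS against 3491 in LMA. Among keratins of any type, Krt19 (2.31), Krt7 (1.89), Krt15 (2.92) and Krt6a (3.36) were higher too. Krt5 (2155 in LLS against 1710.2 in LMA) and Krt14 (2158 in LLS against 1529 in LMA), a pair of the basal layer, were within 2-fold. Krt20 (-1.91) was lower, though within 2-fold with normexp (-0.90). The Krt6a signal was 749 in LLS and 62809 in T. Claudins, which seal tight junctions, had 9 of 18 higher, led by Cldn1 with 1115 in LLS against 88.4 in LMA. Cldn6 (3.24), Cldn7 (3.06) and Cldn8 (3.02) came next. The 1 lower claudin was Cldn5 (-1.42), which is known from endothelium. Of 10 desmosome genes, 7 were higher and 0 lower. The desmoplakin gene Dsp had 4513 in LLS against 664 in LMA, and Perp had 11074 in LLS against 1885 in LMA.

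Among 11 laminins, the basement-membrane chains, 5 were higher and 1 lower, against 3.58% and 2.84% of all genes compared. Lamb3 and Lama3 encode chains of a laminin under stratified epithelium, and both were higher. Lamb3 had 179.9 in LLS against 32.6 in LMA and Lama3 92.6 in LLS against 37.0 in LMA, although Lama3 was within 2-fold with normexp (0.67) and with the mean of its probes (0.86). Lama5 (1.63) was higher as well, whereas Lama2 of muscle basement membrane (-1.07) was lower. The integrin genes Itgb4 (980.1 in LLS against 233 in LMA) and Itga3 (682 in LLS against 158 in LMA), whose products bind such laminins, were higher, and Itga6, the partner of Itgb4, differed by 0.48. Collagens, largely of mesenchyme, had 0 of 35 higher and 5 lower, with a median of -0.21. Col24a1 (-2.05), Col6a2 (-1.23) and Col6a1 (-1.11) were among those lower, Col6a2 within 2-fold with the mean of its probes (-0.90).

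**Figure D3:**
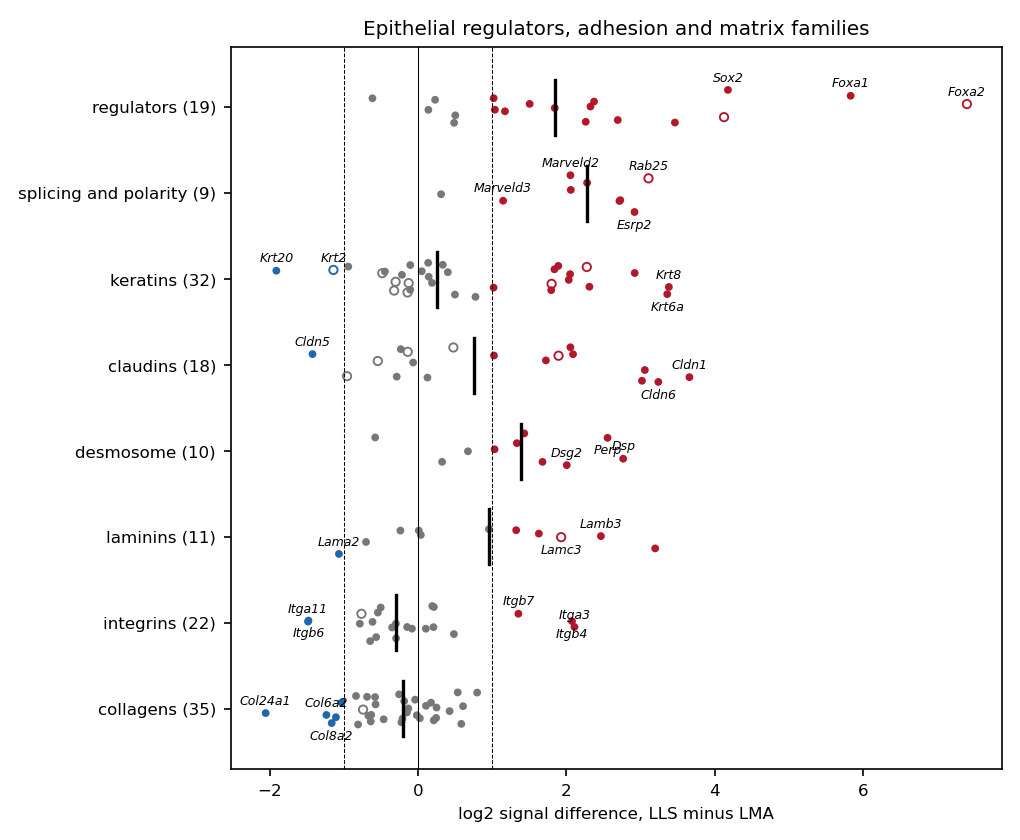
Log2 signal difference (LLS minus LMA, horizontal) of each compared gene of 8 lists or families, with the number compared in brackets, vertical bars at the median, open circles for bounds and dashed lines at 2-fold. The medians of epithelial regulators, splicing and polarity genes, and desmosome genes lie above 1, and that of collagens lies at -0.21.

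Epithelial marker genes were higher too, but they are not a separate set of genes. Krt8, Krt18, Krt5, Krt14, Cldn4, Cldn6, Cldn7, Esrp1 and Grhl2 among them also belong to the groups above. Over 12 markers the summed scaled signal was 36280.1 in LLS against 11910.1 in LMA. By 2-fold or more, 9 markers were higher and 0 lower, against 3.58% and 2.84% of all genes compared. All 12 were well above background in both tissues. Over 9 mesenchyme markers the sum was 92719.4 in LLS against 130472.1 in LMA, and all 9 were well above background in both tissues. The median was -0.41, with Prrx1 (-1.77) and Prrx2 (-1.42) at least 2-fold lower and Vim at 18838 in LLS against 18859 in LMA. In bulk tissue, fewer cells of a type and less RNA per cell cannot be told apart, here and in all results on this pairing. The part of the share of epithelium in the higher level of any 1 gene was not tested. Trp63, the master gene of stratified epithelium, depended on the probe: its brightest probe on chromosome 16 at 25871159 gave 4017 in LLS against 3425 in LMA, while those at 25821344, 25867718 and 25892012 differed by 2.30, 2.56 and 2.56 (mouse build mm9).

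Iroquois genes and the Msx class of arch mesenchyme were lower in LLS as groups, whereas T-box, Dlx and Pax genes went both ways. Iroquois genes, which pattern tissues along their axes, had 5 of 6 members lower by 2-fold or more and 0 higher (median -3.87). Among all genes compared, 2.84% were lower and 3.58% higher. Irx1 gave 217 in LLS against 5153 in LMA (-4.57 ± 0.21). Irx2 gave 41.3 in LLS against 1199 in LMA (-4.86 ± 0.27), and Irx3 65.0 in LLS against 1438 in LMA (-4.47 ± 0.23). Irx5 was dim in LLS at 12.2 against 225 in LMA, which makes LLS at least 9.63-fold lower, and Irx4 differed by -1.41, or by -0.63 with normexp. The probe of Irx6 was dim in LLS and its bound was -0.65. These genes lie in 2 clusters, Irx1, Irx2 and Irx4 on chromosome 13 and Irx3, Irx5 and Irx6 on chromosome 8, and members of both clusters were lower. In MMA, Irx1 had 513 and Irx3 861, and in T they had 77.5 and 53.4.

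In the group of Msx, Alx, Prrx, Shox2 and Hand genes, 9 of 11 were lower and 0 higher (median -1.73). The same shares over all genes were 2.84% and 3.58%. Msx1, needed for growth of the arch and for tooth formation, had 1499 in LLS against 12542 in LMA (-3.06 ± 0.20), and Msx2 215 in LLS against 2495 in LMA (-3.53 ± 0.21). Both stood high in MMA, at 13149 and 5342, and low in T, at 300.2 and 18.3, the Msx2 probe there being dim. Prrx1, a gene of limb and craniofacial mesenchyme, gave 2980.3 in LLS against 10133 in LMA. The aristaless-like gene Alx4, which shapes the face, was lower as well, with 4820.4 in LLS against 13613 in LMA. Hand1, a basic helix-loop-helix factor of the distal arch, had 514 in LLS against 2436 in LMA, while its relative Hand2 differed by -0.65 and Alx1 by -0.99, short of 2-fold.

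T-box genes were divided. Tbx2 had 323 in LLS against 2459 in LMA (-2.93), and Tbx4 had 151 in LLS against 1258 in LMA (-3.06). Tbx5 was dim in LLS at 15.7 against 383 in LMA, at least 16.4-fold lower. Tbx4 and Tbx5 are known as hindlimb and forelimb genes. Tbx18, in contrast, was higher (188 in LLS against 28.6 in LMA), and Tbx3, the paralog of Tbx2, differed by 0.24 and Tbx1 by 0.79. Tbx2 and Tbx4 are neighbours on chromosome 11, and together with Bcas3 and 2610027K06Rik they formed a run of 4 genes lower in LLS over 120.2 kb. The Tbx4 probe was dim in MMA (20.8), and in T it gave 67.8.

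Distal-less genes, which set jaw identity along the proximal to distal axis, were divided. Of 6 compared, 2 were higher, 2 lower and 2 within 2-fold. Dlx1 had 456 in LLS against 161 in LMA, and Dlx2 had 1167 in LLS against 551 in LMA, both higher. Dlx5 had 118 in LLS against 427 in LMA, and Dlx6 had 83.9 in LLS against 206 in LMA, both lower. With normexp Dlx2 (0.95), Dlx6 (-0.83) and Edn1 (0.63) were within 2-fold. Dlx5 and Dlx6 respond to endothelin in the lower jaw, and the gene of the ligand, Edn1, was higher (96.5 in LLS against 42.6 in LMA), with that of the receptor, Ednra, at -0.45. AP-2 genes went both ways too, with Tfap2a (1737 in LLS against 612 in LMA) higher and Tfap2b (174 in LLS against 689 in LMA) lower. Pax9, a gene of pharyngeal endoderm and tooth mesenchyme, had 578 in LLS against 85.5 in LMA, and its paralog Pax1 was dim in LLS at 21.6 against 147 in LMA. Pitx1, a homeobox gene of the lower jaw and hindlimb, had 27204 in LLS against 9589.6 in LMA. Nkx2-3, known from pharyngeal endoderm, had 389 in LLS against 52.2 in LMA. The LIM homeobox genes Isl2 (2.23) and Lhx8 (1.51) were higher as well. Gata3, a zinc-finger gene of pharyngeal arches, had 1019 in LLS against 3065 in LMA, and Mab21l2 399.9 in LLS against 2774 in LMA, both lower, as was Sox8 (-2.22).

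Hox genes are known to be silent in the neural crest of the mandibular arch, and 26 of 39 on the array were not well above background in either tissue. Of the 13 compared, 5 were lower in LLS (38.5%) and 0 higher, against 2.84% and 3.58% of all genes compared. Hoxa2 (84.8 in LLS against 185 in LMA) and Hoxa3 (94.6 in LLS against 205 in LMA), side by side on chromosome 6, were both lower. Hoxb3 gave 39.9 in LLS against 258 in LMA, but its other probes differed by -0.06 and 0.07, and the mean of its probes by -0.90. With normexp the median of the 13 genes was -0.18, against -0.69, and Hoxa2 (-0.74) and Hoxa3 (-0.71) were within 2-fold.

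**Figure D4:**
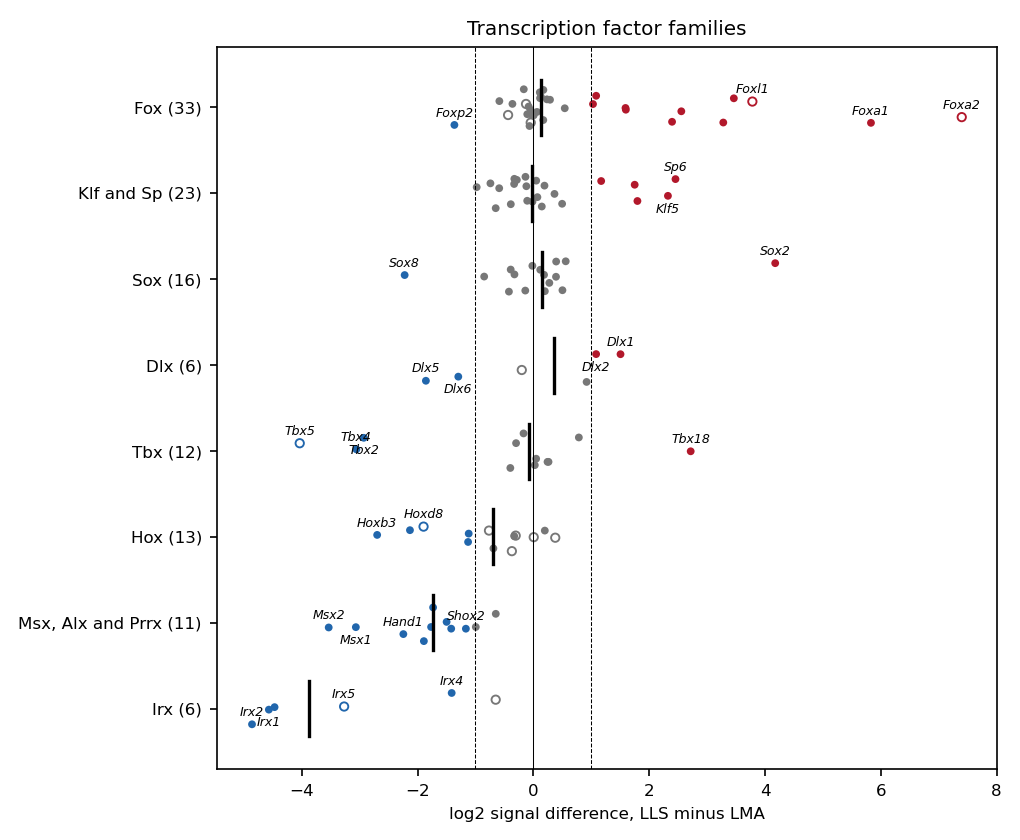
Log2 signal difference (LLS minus LMA, horizontal) of each compared gene of 8 transcription factor families, with the number compared in brackets, vertical bars at the median, open circles for bounds and dashed lines at 2-fold. All Irx genes and all of the Msx, Alx, Prrx, Shox2 and Hand group lie left of 0, whereas 11 of 33 genes with Fox symbols lie beyond 2-fold on the right.

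Genes for the proteins of differentiated muscle fibres were lower in LLS, while the genes of somite-derived and branchial progenitors had medians near 0 and those of determination factors lay between. Skeletal muscle forms when progenitors that carry Pax3 or, in the head, Tbx1 switch on Myf5 and Myod1, then Myog, and then the contractile genes. Of 56 compared genes for contractile, membrane, synaptic and fusion proteins, 34 were lower by 2-fold or more and 0 higher (median -1.16). For all muscle lists, the shares to read beside are 2.84% lower and 3.58% higher over all genes compared.

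Genes of the somite-derived progenitors had a median of -0.19 over 11 genes, with 1 higher and 1 lower. Pax3, which marks these cells, had 439 in LLS against 534 in LMA. Lbx1, which they need to migrate, had 488 in LLS against 547 in LMA. Met, the receptor gene needed for their migration, had 784 in LLS against 711 in LMA. Hgf, the ligand of Met, was higher (674 in LLS against 251 in LMA), and 2 of its 3 other probes also passed 2-fold. The homeobox genes Meox2 (2262 in LLS against 505 in LMA) and Meox1 (1268 in LLS against 2859 in LMA) went in opposite directions. Over 7 genes of branchial arch muscle progenitors the median was 0.02, with Lhx2 (26.8 in LLS against 55.5 in LMA) lower by little more than 2-fold and within it with normexp (-0.33). Of 6 determination factor genes, 0 were higher and 1 lower (median -0.55). Myod1 had 474 in LLS against 901 in LMA (-0.93) and Myog 1489 in LLS against 4179 in LMA (-1.49), and the probe of Myf5 was not well above background in either tissue.

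Contractile genes differed more. The embryonic myosin heavy chain gene Myh3 had 654 in LLS against 4012 in LMA, but its other probe, dim in LLS, gave -0.89. Myh8, the perinatal form, had 319.8 in LLS against 1008 in LMA. The calcium channel gene Cacna1s gave 39.4 in LLS against 255 in LMA (-2.69 ± 0.27, or -1.62 with normexp). The troponin gene Tnnc1 gave 95 in LLS against 394 in LMA. The skeletal actin gene Acta1 had 217 in LLS against 761 in LMA. The cardiac actin gene Actc1, which embryonic skeletal muscle also uses, had 3406 in LLS against 9736 in LMA. All 7 genes of the neuromuscular junction were lower to some degree, 6 of them at least 2-fold. Chrna1, a subunit of the acetylcholine receptor, had 185 in LLS against 584 in LMA, and Chrng, its fetal subunit, 532 in LLS against 1315 in LMA. Chrnb1 (-1.05) was also lower, as were the organisers Musk (-1.05), Dok7 (-1.27) and Rapsn (-1.12). Chrnd differed by -0.91. With normexp Chrnb1 (-0.22), Musk (-0.72), Rapsn (-0.94) and Mymk (-0.76) were within 2-fold, as was Dok7 with the mean of its probes (-0.67). The fusion genes Mymk (54.3 in LLS against 148 in LMA) and Mymx (838 in LLS against 1962 in LMA) were lower. In T the Myh3 signal was 79533, and that of Cacna1s 3396. When all usable probes of a gene were averaged, the median of the 7 myosin light chains was -0.32, against -1.27. The summed signal of 12 endothelial markers was lower too, at 6683.9 in LLS against 13099.3 in LMA, and its part in the muscle result was not tested.

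**Figure D5:**
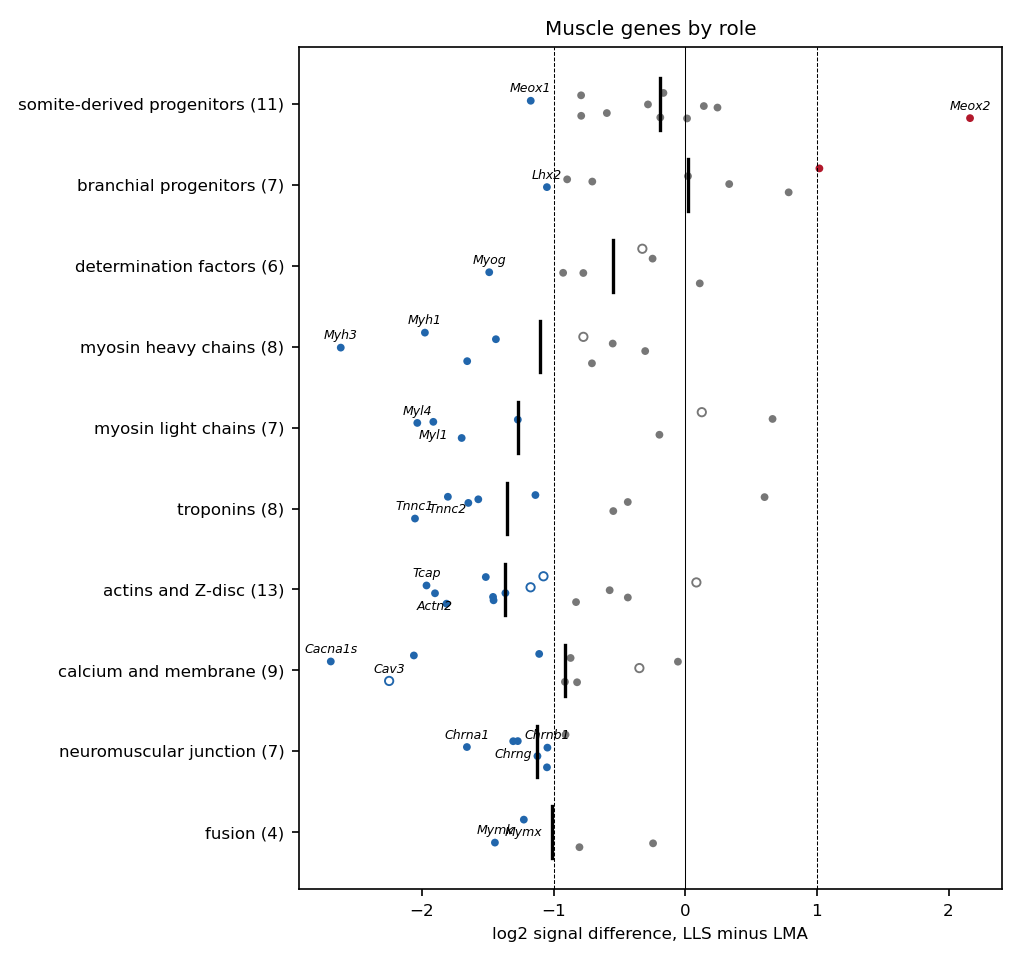
Log2 signal difference (LLS minus LMA, horizontal) of muscle genes by role, from progenitor genes at the top to fusion genes at the bottom, with the number compared in brackets, vertical bars at the median, open circles for bounds and dashed lines at 2-fold. The medians of somite-derived and branchial progenitor genes lie near 0, and those of actins and troponins lie below -1.

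Factors of the Myod1 family bind the E-box, and the letters CAGCTG, which read the same on both strands, were searched in promoter windows from 250 bases before to 50 after each gene start (RefSeq, GRCm38.p6). They were found in 16 of the 42 muscle structure genes with a window (38.1%), in 80 of 363 windows of genes at least 2-fold lower in LLS (22%), in 63 of 425 windows of genes at least 2-fold higher (14.8%) and in 15.8% of the 13103 windows of all genes compared (16.2% of all 27025 windows). The muscle genes that were lower are also among the lower genes. A loose form of the MEF2 motif, the letters CTA and TAG with any 4 bases between them on either strand, was searched as well. It was in 9.52% (4 of 42), 4.68%, 2.82% and 3.17% of the same windows. The forkhead letters TGTTTAC, on either strand, were in 2.82% of the windows of genes higher in LLS and 2.69% of all. A match is a run of letters and not a measured binding site. The 250 bases before the start of Chrna1 (chr2:73580339-73580588, minus strand), Chrng (chr1:87205561-87205810, plus strand) and Acta1 (chr8:123894776-123895025, minus strand) are shown because these muscle genes were lower in LLS and hold the letters, which are in capitals.
Chrna1: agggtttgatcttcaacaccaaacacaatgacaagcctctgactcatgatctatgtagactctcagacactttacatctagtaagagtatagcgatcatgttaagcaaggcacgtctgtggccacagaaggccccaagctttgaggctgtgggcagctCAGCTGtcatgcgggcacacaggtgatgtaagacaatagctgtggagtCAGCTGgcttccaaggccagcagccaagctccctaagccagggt
Chrng: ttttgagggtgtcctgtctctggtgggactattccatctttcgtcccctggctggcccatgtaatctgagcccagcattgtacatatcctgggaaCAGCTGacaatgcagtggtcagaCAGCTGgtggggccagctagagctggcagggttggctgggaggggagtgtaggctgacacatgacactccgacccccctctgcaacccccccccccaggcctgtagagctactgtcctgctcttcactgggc
Acta1: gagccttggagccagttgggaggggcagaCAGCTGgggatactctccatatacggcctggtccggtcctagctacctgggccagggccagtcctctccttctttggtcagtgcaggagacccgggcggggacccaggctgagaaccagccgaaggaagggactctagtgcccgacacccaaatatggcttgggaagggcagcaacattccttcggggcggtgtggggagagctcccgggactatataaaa

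Growth factor pathways other than Hedgehog held a few called members in each direction, and the shares to read them against are again 3.58% and 2.84%. FGF signalling, which drives outgrowth of the arch, had 3 of 33 genes higher and 2 lower. Fgf8, the epithelial ligand, gave 114 in LLS against 144 in LMA, and Fgf10, a mesenchymal one, 715 in LLS against 536 in LMA. Fgfr3, a receptor gene, had 1417 in LLS against 351 in LMA, and Fgf18, a ligand of skeletal growth, 1644 in LLS against 698 in LMA. The feedback inhibitor gene Spry1 (1.13) was higher and Fgf15 (-1.40) lower, while the response genes Dusp6 (0.48), Etv4 (0.40) and Etv5 (0.14) were within 2-fold.

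Of 58 Wnt genes compared, 8 were higher and 10 lower. Ligands, receptors and antagonists had members on either side, and of 12 effectors and targets 2 were higher and 0 lower. Among ligands, Wnt4 (1966 in LLS against 753 in LMA) and Wnt6 (2791 in LLS against 1304 in LMA) were higher. Wnt3 (38.7 in LLS against 198 in LMA) and Wnt9b (56.1 in LLS against 252 in LMA), neighbours on chromosome 11, were lower, and Wnt7a was dim in LLS at 14.9 against 152 in LMA. R-spondins, which amplify the signal, split into Rspo1 (1433 in LLS against 516 in LMA), higher, and Rspo2 (611 in LLS against 2808 in LMA), lower. Their receptor gene Lgr5 (1530.2 in LLS against 467 in LMA) and the gene of the ubiquitin ligase that they counter, Rnf43 (791 in LLS against 143 in LMA), were higher. The secreted antagonist gene Dkk1 had 35.0 in LLS against 308 in LMA (-3.14 ± 0.28, or -1.91 with normexp). Sostdc1, an inhibitor of Wnt and BMP signals, had 5305 in LLS against 1875 in LMA. Axin2, a general target of the pathway, differed by -0.96, and Sp5, another target, by 1.80.

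BMP and TGF-beta genes had 5 of 60 higher and 7 lower. Bmp4, the ligand that induces Msx genes in the arch, gave 4474 in LLS against 8755 in LMA (-0.97). Gdf10, a distant BMP relative, had 31.5 in LLS against 369.8 in LMA (-3.55 ± 0.32), and Tgfb2 3680.1 in LLS against 7669 in LMA (-1.06). Gdf11 (177 in LLS against 50.4 in LMA) and the antagonist gene Fst (860.0 in LLS against 368 in LMA) were higher. None of 12 receptor genes reached 2-fold, and Id1, Id2 and Id3, direct targets of BMP signals, differed by -0.05, -0.53 and -0.20. Notch ligand genes Jag1 (1095 in LLS against 408 in LMA) and Jag2 (368 in LLS against 123 in LMA) were higher and Dll1 (95.4 in LLS against 202 in LMA) lower, Dll1 within 2-fold with normexp (-0.65), with 0 of 4 receptors and 0 of 7 modulators beyond 2-fold. Of 9 Notch target genes 0 were higher and 1 lower, Hey2, which was dim in LLS and had a bound of -1.01 (-0.34 with normexp).

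Genes of retinoic acid, which the embryo makes from vitamin A, had 4 of 19 higher (21.1%) and 2 lower (10.5%). The shares over all genes compared were 3.58% and 2.84%. Aldh1a1 (314 in LLS against 70.0 in LMA) and Aldh1a7 (1969 in LLS against 697 in LMA), adjacent on chromosome 19, were higher together with their neighbour Anxa1 (1941 in LLS against 262 in LMA). Dhrs3, which lowers retinaldehyde, had 4459 in LLS against 1172 in LMA, and Cyp26a1, which breaks retinoic acid down, was at 225 in LLS against a dim 18.8 in LMA. The receptor gene Rxrg (632 in LLS against 1768 in LMA) was lower, and Aldh1a2, the main synthesis enzyme of embryonic mesenchyme, differed by 0.15.

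Tac1 and Cxcl14, both genes of secreted peptides, were lower in LLS by more than any other gene measured in both tissues. Tac1, the precursor of substance P, had 30.6 in LLS against 2393 in LMA (-6.29 ± 0.32), with 38.9 in MMA and 746 in T. Of its other usable probes, 1 was dim in LLS, with a bound of -4.08, and the other was dim in LLS and near the background in LMA. Cxcl14, a chemokine of epithelia, had 120.1 in LLS against 4731 in LMA (-5.30 ± 0.21), with 462 in MMA and 31.5 in T. Its other probe, close to the background in both tissues, differed by 0.10. Tac2, which encodes neurokinin B, gave 284 in LLS against 1653 in LMA, and Nts, the neurotensin gene, 61.4 in LLS against 324 in LMA. The neurotrophin gene Bdnf had 112 in LLS against 449 in LMA (-2.01). Cck was at 134 in LLS against a dim 17.0 in LMA, and Nrtn, a ligand of the GDNF family, had 1929 in LLS against 771 in LMA.

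Axon guidance genes, which also steer nerves into the tongue, had 7 of 64 higher and 7 lower (10.9% each). Of all genes compared, 3.58% were higher and 2.84% lower. The netrin gene Ntn1 (212 in LLS against 84.7 in LMA) and its receptor gene Unc5a (299.8 in LLS against 62.3 in LMA) were higher, and Unc5b (1612 in LLS against 3429 in LMA) was lower. Sema3d, a secreted semaphorin gene, had 1912 in LLS against 448 in LMA. Sema3c (1.31) and Nrp1, the semaphorin co-receptor gene (1.03), were also higher, whereas Plxna4, another semaphorin receptor gene (-1.32), was lower. Of the ephrin system, Epha3 (2052 in LLS against 797 in LMA) was higher and Efna5 (2130.3 in LLS against 5563 in LMA) lower. With normexp Ntn1 (0.91) and Nrp1 (0.96) were within 2-fold. Neuron markers had a median of -0.04, and 0 of 10 reached 2-fold.

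Tendon and connective tissue genes had 4 of 32 higher (12.5%) and 6 lower (18.8%), with a median of -0.45. These shares were 3.58% and 2.84% over all genes compared. Scx, the tendon transcription factor gene, had 3288 in LLS against 10886 in LMA (-1.73), and the matrix genes Ogn (403 in LLS against 1952 in LMA) and Fbln2 (3532 in LLS against 11514 in LMA) were lower. Postn (5718 in LLS against 2014 in LMA) and Dcn (2341 in LLS against 1079.9 in LMA) were higher. Of 24 cartilage and bone genes, 2 were higher (8.33%) and 3 lower (12.5%). Sox9, the regulator of cartilage, gave 224 in LLS against 152 in LMA and Col2a1, its main collagen target, 2589.9 in LLS against 2838 in LMA, whereas Runx2 was not well above background in either tissue.

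Besides the mesenchyme markers given above, endothelial markers were lower in LLS as a list. Endothelial markers had 5 of 12 lower by 2-fold or more and 0 higher (median -0.87), and their summed scaled signal was 6683.9 in LLS against 13099.3 in LMA. Kdr, the main receptor gene for VEGF, had 1633 in LLS against 3987 in LMA, and Erg, an endothelial transcription factor gene, 42.7 in LLS against 202 in LMA. Tek (-1.34) and Pecam1 (-1.15) were also lower, but within 2-fold with normexp (-0.93 and -0.89), and all 12 markers were well above background in both tissues. The part of blood vessels in the lower level of other genes was not tested. Macrophage markers had a median of -0.19 with 0 of 12 beyond 2-fold, and their sum was 5545.3 in LLS against 6536.8 in LMA. None of 3 primitive erythroid and 7 other erythroid markers reached 2-fold, with the embryonic globin gene Hbb-y at 243061 in LLS against 237617 in LMA. Markers of pharyngeal endoderm and thyroid, which include Foxa1, Foxa2, Foxe1, Nkx2-3 and Pax1, had 4 of 8 higher and 1 lower (median 1.57). Over all genes compared these shares were 3.58% and 2.84%. Their summed signal was 7592.7 in LLS against 550.2 in LMA. Most of the LLS sum came from Foxa1 (3360.5) and Foxa2 (3344), already given above. Of the markers listed, Nkx2-1 and Pax8, defining genes of the thyroid, were not well above background in either tissue. Tg, the thyroglobulin gene, was at 34.1 in LLS against 35.3 in LMA. The part of such cells in the levels of Shh and the Fox genes was not tested. Of 5 salivary markers only Smgc, listed under its synonym Muc19, was well above background, at 122 in LLS against 123 in LMA.

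Genes of growth showed no called member in most classes. None of 18 replication genes and none of 18 mitosis genes reached 2-fold, with medians of 0.22 and -0.01, and Mki67 gave 20606 in LLS against 24041 in LMA. The cell-cycle inhibitor gene Cdkn2b had 168 in LLS against 32.2 in LMA (2.39). The 80 cytosolic ribosomal protein genes had a median of 0.37 and 84 respiratory chain genes a median of 0.35, with 0 and 1 beyond 2-fold. These medians were 0.10 and 0.16 after quantile normalization, and over genes sorted by brightness into 5 equal classes the median was -0.05 in the dimmest class and 0.07 in the brightest.

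Called genes were not confined to E11.5. Of the 633 genes higher in LLS, 492 (77.7%) were well above background in MMA and 567 (89.6%) in T. Of the 503 lower in LLS, 308 (61.2%) were so in MMA and 412 (81.9%) in T. The same shares over all genes compared were not computed, so these cannot be read as a trait of the called genes. Some genes stood well above background on 1 of the 4 arrays, such as Foxl1 and Vrtn in LLS and Pdzph1, Gsg1l and Wnt7a in LMA. Vrtn had 139 in LLS against a dim 4.40 in LMA, and Pdzph1 was dim in LLS at 8.91 against 321 in LMA. Serpinb5, an epithelial serpin gene, had 758 in LLS against 41.2 in LMA, was dim in MMA and was at 10407 in T. Anxa8, an annexin gene, had 5105 in LLS against 282 in LMA, and 14271 in T. Mybph and Myog, next to each other on chromosome 1, were both lower in LLS, Mybph with 73.0 in LLS against 395 in LMA. Krt36, Krt13, Krt15 and Krt19 formed a run of 4 genes higher in LLS over 39.1 kb of chromosome 11 (mm9), Krt13 within 2-fold with normexp (0.83). In all, 102 runs of at least 2 neighbouring called genes of 1 direction lay within gaps of 500 kb, and 24 of them held at least 3 genes. Some runs pair a gene with a transcript of its own locus, such as Sox2 with Sox2ot and Irx3 with Irx3os. Others hold genes of 1 family, such as Cldn4 and Cldn3. The number of runs to be expected was not computed, so the count only describes where called genes lie.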

How the data were processed

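RNA of each pooled tissue was read on 1 Agilent mouse array of the single-colour kind with the dye Cy3, and the 4 arrays share 1 slide. The deposited scanner files hold the spot intensity that the authors extracted with Agilent Feature Extraction 10.7.1.1, per the file headers; the submitters' processing notes list version 9.5.1.1. The deposited value table holds normalized signal values from the authors for 52141 probes, whose ranks match the scanner intensities (Spearman 1.0) and whose normalization is not named in the sources used here. Its medians were 51.1 (LLS), 51.3 (LMA), 50.5 (MMA) and 51.9 (T).

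Starting from the background-subtracted and detrended processed signal, control spots and spots flagged as outliers were left out, spots of a probe were averaged, each array was divided by its 75th percentile (455.7 in LLS and 506.7 in LMA) and log2 was taken. Probes not well above background took the higher of their own value and the lowest value well above background on that array (a scaled signal of 23.4 in LLS and 19.8 in LMA). Of non-control spots, 59.3% in LLS and 62.9% in LMA were well above background, and 0 were saturated. Probes were named through RefSeq accessions (33885), the symbol in the file (11815) or an older symbol (489), and 10412 had no gene. Each gene was read from its brightest probe over the 4 arrays, and a gene was compared where that probe was well above background in LLS or LMA. Signals of different probes were not set against each other, except as summed marker levels. Where RefSeq gave several promoter windows for a gene (4163 genes), that of the lowest start was searched. Precision is limited by the number of arrays.

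Genes were named by size, as the 30 measured in both tissues and the bounds with the largest differences in each direction, and by 23 role lists, 13 marker lists and 37 symbol families with 2144 different genes. Some genes of the size ranking and some listed genes, which are counted in their group, are not reported by name here. The genes named are thus not the whole ranking. The lists and the genes were chosen with earlier results of these data known. Calculations used Python 3.11.15, numpy 2.4.6, pandas 2.3.3, matplotlib 3.10.9, R 4.3.3 and limma 3.58.1, and were tested on simulated data. Alternatives were normexp background correction, quantile and cyclic loess normalization, another percentile, no detection filter, genes measured in both tissues, other probe rules, a 4-fold threshold and the deposited values.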

Additional observations from a re-analysis of the deposited data

How the results depend on the processing

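No paired analysis was possible because each tissue had 1 array, and no replicate could be left out. The counts of 633 genes higher and 503 lower in LLS were 365 and 208 with normexp background correction, 1480 and 1811 with neither filter nor floor, 187 and 73 at a 4-fold threshold, and 88 and 62 where every probe of a gene had to reach 2-fold. The cause was not tested, apart from the stricter threshold and the smaller set of genes with several probes, which can only lower a count. Quantile normalization (686 and 463), cyclic loess (713 and 440), the percentile over detected probes (619 and 518), genes measured in both tissues (495 and 388), the mean of probes (590 and 451) and the deposited values (687 and 461) stayed within 1.5 times. Higher genes made up 55.7% of the called genes, against 45% without filter and floor and 63.7% with normexp. Of 367 named or listed genes past 2-fold, 0 turned direction in any of the 8 alternatives run on them, and 256 stayed past 2-fold with normexp and 343 with cyclic loess. These genes were picked by size on the same arrays. Restriction to genes measured in both tissues leaves each difference as it was. Removing filter and floor can only leave or enlarge a difference, so neither of these alternatives could turn a gene. Of 16 lists with a median past 2-fold, 0 turned. Signals near background limit the comparison, and the spread between embryos or pools was not measured.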

Other observations

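Of 257 solute carrier genes, 9 (3.5%) passed 2-fold upward in LLS and 13 (5.06%) downward, and of 59 potassium channel genes 2 (3.39%) were higher and 4 (6.78%) lower. The upward shares lie near the 3.58% of all genes compared, and the downward shares stand above the 2.84%, on 13 and 4 genes. The genes below are given as single values, chosen after their values were seen. The inward rectifier gene Kcnj2, known from muscle and from craniofacial disease, had 303 in LLS against 1292 in LMA (-2.09), whereas Kcnj8, another inward rectifier gene, had 1262 in LLS against 459 in LMA (1.46). The glucose transporter gene Slc2a3 was lower (692 in LLS against 1787 in LMA), but within 2-fold with the mean of its probes (-0.85). Cftr, the chloride channel gene of secretory epithelia, stood at 166 in LLS against a dim 13.6 in LMA. Slc18a3, which loads acetylcholine into synaptic vesicles, was dim in LLS at 23.2 against 61.0 in LMA, a bound of -1.38 (-0.39 with normexp). Tmprss13, a membrane-bound serine protease gene, was at 375 in LLS against 43.7 in LMA, and its relative Tmprss11a at 80.6 in LLS against a dim 6.64 in LMA. Mmp9, a matrix protease gene, gave 31.6 in LLS against 139.7 in LMA.

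By chromosome, the share of compared genes at least 2-fold higher in LLS ran up to 5.42% on chromosome 15 and 5.24% on chromosome 12. It was 3.58% over all genes compared. The share at least 2-fold lower ran up to 5.22% on chromosome 18, against 2.84% over all genes. These chromosomes were picked as extremes. Chromosome 12, which holds Foxa1 and Pax9, had 33 higher and 5 lower of 630 genes. Xist, the RNA that silences an X chromosome in females, had 236 in LLS against 500.2 in LMA (-1.08, or -0.93 with normexp), and the Y-linked genes Ddx3y (-0.02), Eif2s3y (0.19), Kdm5d (0.09) and Uty (0.29) were within 2-fold. The sex of the pooled embryos is not given in the sources used here.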
